A study of Homo sapiens with 2 samples.

Results

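The genes described here make cholesterol and fatty acids, or sense and carry sterol, in HuH6 cells, a line grown from a human hepatoblastoma, the commonest liver tumour of early childhood. They were chosen by name from a list of 31, of which 27 symbols equalled an entry in the gene column of the deposited table. Of these 27, 24 had a single row, among 53139 such symbols in the whole table, and 3 (FDFT1, LSS and ACACA) had 2 rows. The other 4 listed genes (CYP51A1, TM7SF2, EBP and FADS2) were named only in rows that join several genes. PIM3_KO was the HuH6 line carrying a CRISPR/Cas9 knockout of PIM3, a serine/threonine kinase, and HuH6_WT was the wild-type line. All cells were untreated and grown in the same medium with fetal bovine serum, and the labels do not say whether PIM3_KO was a clone or a pool. Poly(A) RNA was sequenced in 1 library per group, so no difference below has a replicate check or a p-value, and any other difference between the 2 cultures cannot be told apart from loss of PIM3.

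Cells build cholesterol from acetyl-CoA through mevalonate, isoprenoid diphosphates, squalene and lanosterol, and build fatty acids from the same acetyl-CoA through malonyl-CoA. Both pathways are driven at the level of transcription by the sterol regulatory element binding proteins (SREBPs), which SCAP escorts out of the endoplasmic reticulum when sterol is scarce and which the INSIG proteins hold back when sterol is plentiful. The liver is a main site of both syntheses, and SREBP-2, encoded by SREBF2, is best known for the sterol genes while SREBP-1c, from SREBF1, is best known for the fatty acid genes.

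The deposited values are FPKM, read counts scaled by transcript length and by library depth. Steps between low values implied totals of about 22200000 reads in PIM3_KO and 28400000 reads in HuH6_WT, so that 3 reads on a transcript of 2000 bp amounted to 0.0750 FPKM in PIM3_KO and 0.0588 FPKM in HuH6_WT. The FPKM columns summed to 1086211 in PIM3_KO and 787250 in HuH6_WT, and rescaling both to the same total (TPM) gave a median log2 ratio over all measured genes of -0.40 in place of 0.01. PIM3 itself measured 14.0 FPKM in PIM3_KO and 34.2 FPKM in HuH6_WT. Of 8 liver and hepatoblast markers, GPC3, HNF4A and FOXA2 lay within 2-fold, APOA2, TTR, AFP and ALB were at least 2-fold higher in PIM3_KO, and DLK1 was listed at 0 in both. APOA2 was short of 2-fold on the other scales, with a log2 ratio of 0.64 under TPM and 0.28 after the length correction described below. AFP measured 70.1 FPKM in PIM3_KO and 1.19 FPKM in HuH6_WT, TTR 2232 FPKM in PIM3_KO and 270 FPKM in HuH6_WT, and ALB 9.18 FPKM in PIM3_KO and 0.520 FPKM in HuH6_WT. The part that such liver gene differences play in the values below was not tested.

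As a group the measured members did not lean either way in the FPKM values. Ratios are log2 of FPKM + 1 in PIM3_KO over FPKM + 1 in HuH6_WT, and the added 1 shrinks the ratio of genes with low levels. Genes averaging 1 FPKM or more over both libraries are called measured, and all 24 members with a single row were. Of these 24, 1 member was at least 2-fold higher in PIM3_KO (PMVK), against 6.89% of 11253 measured genes, and 2 were at least 2-fold lower (SREBF2 and STARD4), against 4.59%. With so few members, these counts stand near the background. The median log2 ratio was -0.00069 over the members and 0.01 over all measured genes, with 12 members positive and 12 negative, against 51% of measured genes positive. The log2 ratios had an SD of 0.55 across the members and of 0.71 across measured genes. Under TPM 7 members had a positive ratio, against 26.1% of measured genes, and their median was -0.46. On that scale 0 members were at least 2-fold higher, against 2.87% of measured genes, and 3 (SC5D, SREBF2 and STARD4) at least 2-fold lower, against 14.4%. At 1.5-fold, a threshold added after the data were seen, 3 members were higher (PMVK, FDPS and INSIG1), against 18.2%, and 3 lower (SC5D, SREBF2 and STARD4), against 14.9%. ACAT2, IDI1, MSMO1, NSDHL and SCD were the 5 members whose sign differed between FPKM and TPM.

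**Figure D1:**
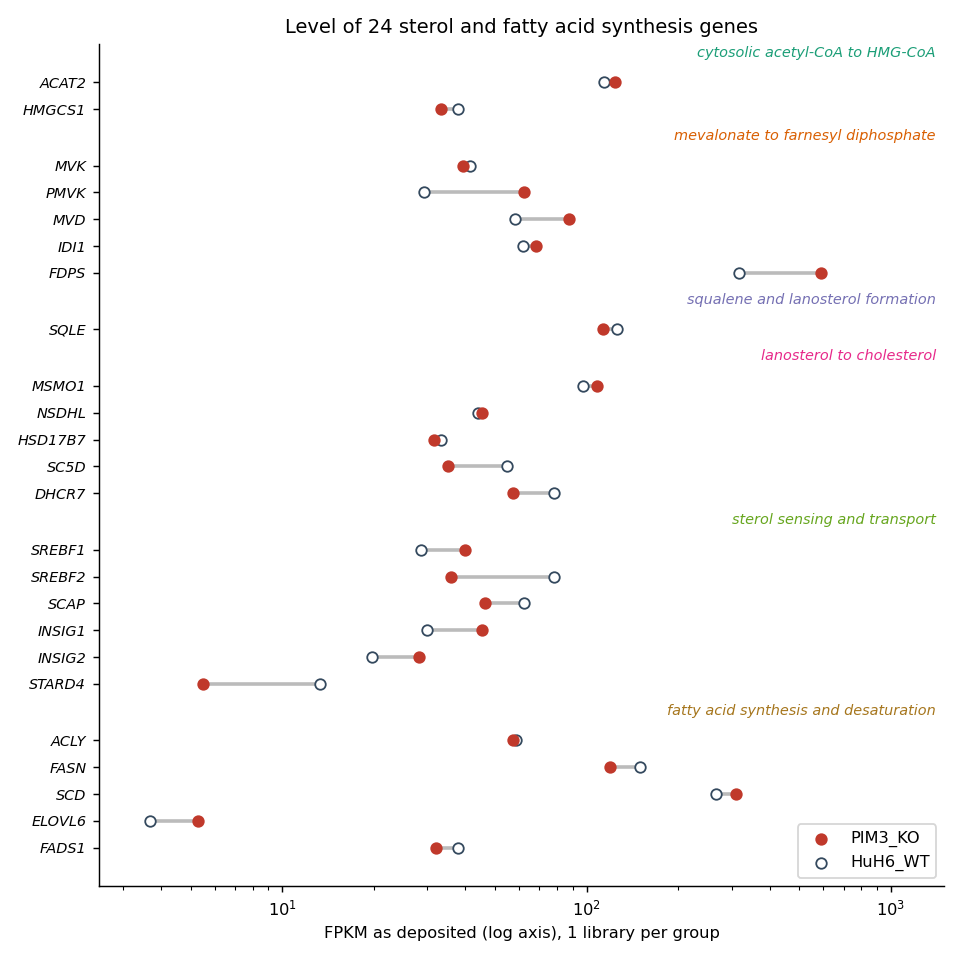
FPKM of the 24 members with a row of their own, on a log axis, grouped by role; filled points are PIM3_KO and open points HuH6_WT, with 1 library each and a grey line between them. The longest gaps are those of STARD4 and SREBF2, lower in PIM3_KO, and PMVK, higher in PIM3_KO, while FDPS is the most abundant member in both libraries.

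Spearman's rho between the members' FPKM levels in the 2 libraries was 0.83 over 24 genes, given as a description. Of these 24, FDPS ranked 1 and SCD ranked 2 in each library, and ELOVL6 and STARD4 were the least abundant in each. Summed over the 24 members, the level was 2122 FPKM in PIM3_KO and 1844 FPKM in HuH6_WT, which was 0.195% of the column total in PIM3_KO and 0.234% in HuH6_WT. In this and every other result from a bulk culture, a different share of expressing cells and a different amount of RNA per cell cannot be told apart.

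At the entry of the pathway, both cytosolic enzymes lay close to equality. ACAT2, the thiolase that joins 2 acetyl-CoA units, measured 124 FPKM in PIM3_KO and 114 FPKM in HuH6_WT. HMGCS1, the synthase that makes HMG-CoA, measured 33.3 FPKM in PIM3_KO and 37.9 FPKM in HuH6_WT. Their log2 ratios were 0.12 and -0.18. The end of ACAT2 overlaps that of TCP1 (242 FPKM in PIM3_KO and 307 FPKM in HuH6_WT) on the opposite strand. No source used here gives the strand setting of the counting, so how reads within the overlap were assigned is not known.

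The steps from mevalonate to farnesyl diphosphate held the highest ratios of the 24 members with a single row. PMVK (ENSG00000163344.5, chr1:154924734-154936991 on GRCh38, minus strand), the kinase that phosphorylates phosphomevalonate, measured 62.5 FPKM in PIM3_KO and 29.2 FPKM in HuH6_WT, a fold of 2.14 (1.97 to 2.33). Its level rested on roughly 1501 reads in PIM3_KO and 895 reads in HuH6_WT, estimated from FPKM and length. Bounds in parentheses after a fold are exact 95% Clopper-Pearson limits on such reads, which cover counting error only and are approximate. FDPS (ENSG00000160752.14, chr1:155308748-155320666, plus strand), which condenses isoprenoid units into farnesyl diphosphate, measured 591 FPKM in PIM3_KO and 317 FPKM in HuH6_WT, a fold of 1.86 (1.82 to 1.91). Both libraries placed FDPS among their most abundant transcripts, above 98.3% of measured genes in PIM3_KO and 97.5% in HuH6_WT.

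MVD, the decarboxylase that yields isopentenyl diphosphate, stood higher as well, at 87.8 FPKM in PIM3_KO and 58.3 FPKM in HuH6_WT, a log2 ratio of 0.58. IDI1, the isomerase that follows it, measured 68.2 FPKM in PIM3_KO and 61.9 FPKM in HuH6_WT. The first enzyme of the stretch, the mevalonate kinase MVK, measured 39.2 FPKM in PIM3_KO and 41.5 FPKM in HuH6_WT. Of these 5 enzymes 4 had a positive ratio, with a median of 0.58, and under TPM 3 did, with a median of 0.12. Among all measured genes 51% had a positive ratio, and 26.1% did under TPM. After the length correction described below, the median of the 5 enzymes was 0.39. MVK lies head to head with MMAB, a cobalamin enzyme gene that overlaps its start on the opposite strand and measured 85.9 FPKM in PIM3_KO and 41.8 FPKM in HuH6_WT. FDPSP1, a pseudogene of FDPS and the only copy looked up, was at 0.361 FPKM in PIM3_KO and 0.0405 FPKM in HuH6_WT.

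Squalene and lanosterol formation could be followed through a single clean row. SQLE, the squalene epoxidase that controls flux into the sterols, measured 113 FPKM in PIM3_KO and 126 FPKM in HuH6_WT, a log2 ratio of -0.15. LSS, which closes the ring to lanosterol, was listed at 0 in both libraries in one row and at 3.65 FPKM in PIM3_KO and 13.7 FPKM in HuH6_WT in the other, a log2 ratio of -1.66 for that row. The larger row of FDFT1, the squalene synthase, held 4.70 FPKM in PIM3_KO and 7.29 FPKM in HuH6_WT, and its smaller row 0.0715 FPKM in PIM3_KO and 0.106 FPKM in HuH6_WT. Reads of a symbol with 2 rows can be split or lost between them, so these levels are uncertain and neither gene was counted.

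From lanosterol onwards the 5 enzymes with a single row were near equal or lower in PIM3_KO. MSMO1, which oxidises the methyl groups, measured 108 FPKM in PIM3_KO and 97.3 FPKM in HuH6_WT, and NSDHL, the decarboxylating dehydrogenase after it, measured 45.2 FPKM in PIM3_KO and 44.1 FPKM in HuH6_WT. The sterol ketoreductase HSD17B7 measured 31.5 FPKM in PIM3_KO and 33.4 FPKM in HuH6_WT, and its copy HSD17B7P1 was listed at 0.0551 FPKM in PIM3_KO and 0 in HuH6_WT. Those 3 enzymes, like DHCR7 below, differed by less than 1.5-fold. SC5D, the desaturase of the sterol ring, measured 35.1 FPKM in PIM3_KO and 54.8 FPKM in HuH6_WT, a fold of 0.641 (0.605 to 0.679), and its log2 ratio of -0.63 became -1.08 under TPM. DHCR7, the reductase that makes cholesterol from its dehydro precursor, measured 57.3 FPKM in PIM3_KO and 78.4 FPKM in HuH6_WT, a log2 ratio of -0.45. The 5 enzymes had a median of -0.08, or -0.53 under TPM, where all 5 were negative. On that scale most measured genes were negative too, with 26.1% positive and a median of -0.40.

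Joined rows held the remaining sterol enzymes, and their values are those of several genes together. The row that joins CYP51A1, the lanosterol demethylase, with 4 other genes measured 67.4 FPKM in PIM3_KO and 80.7 FPKM in HuH6_WT. TM7SF2, a sterol reductase, shared a row with VPS51, at 266 FPKM in PIM3_KO and 246 FPKM in HuH6_WT. EBP, the sterol isomerase, shared a row with TBC1D25 and AF196969.1, and that row measured 384 FPKM in PIM3_KO and 198 FPKM in HuH6_WT, a log2 ratio of 0.96. None of the 3 rows can be read as the level of its sterol enzyme alone.

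Among the sterol sensors, SREBF2 and STARD4 were lower in PIM3_KO while SREBF1 and both INSIG genes had positive ratios. SREBF2 (ENSG00000198911.11, chr22:41833079-41907308 on GRCh38, plus strand) measured 35.9 FPKM in PIM3_KO and 78.4 FPKM in HuH6_WT, a fold of 0.458 (0.441 to 0.474), on roughly 4019 reads in PIM3_KO and 11201 reads in HuH6_WT. STARD4 (ENSG00000164211.12, chr5:111496033-111512590, minus strand), a soluble carrier that moves cholesterol between membranes, measured 5.48 FPKM in PIM3_KO and 13.4 FPKM in HuH6_WT, a fold of 0.410 (0.372 to 0.453), on roughly 537 reads in PIM3_KO and 1669 reads in HuH6_WT. Their log2 ratios of -1.11 and -1.15 were the lowest of the 24 members with a single row, while the larger of the 2 LSS rows was lower, and 3.50% and 3.15% of measured genes had a lower ratio than SREBF2 and STARD4.

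SREBF1 measured 39.8 FPKM in PIM3_KO and 28.7 FPKM in HuH6_WT, a log2 ratio of 0.46 and 0.01 under TPM. The quotient of SREBF2 over SREBF1 within a library, which a common scaling leaves as it is, was 0.901 in PIM3_KO and 2.73 in HuH6_WT, so SREBF2 was the more abundant of the pair only in HuH6_WT. SREBF1 overlaps the end of RAI1 (8.73 FPKM in PIM3_KO and 12.2 FPKM in HuH6_WT) on the other strand. SCAP, the escort, measured 46.3 FPKM in PIM3_KO and 62.5 FPKM in HuH6_WT, a log2 ratio of -0.43.

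INSIG1, itself a well known target of the SREBPs, measured 45.5 FPKM in PIM3_KO and 29.98 FPKM in HuH6_WT, a fold of 1.52 (1.44 to 1.60). INSIG2 measured 28.1 FPKM in PIM3_KO and 19.7 FPKM in HuH6_WT, a log2 ratio of 0.49. INSIG1 over INSIG2 was 1.62 in PIM3_KO and 1.52 in HuH6_WT. Under TPM their log2 ratios were 0.13 and 0.04.

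The promoters of the members with the largest ratios are shown because SREBPs act through the sterol regulatory element, often together with the CCAAT-binding factor NF-Y. Promoters came from RefSeq (GRCh38.p14, 250 bases before to 50 after the annotated start), which held 27 of the 31 listed genes and not ACAT2, FASN, FDFT1 and SQLE. Capitals mark matches to TCACNCCAC, the core of a sterol regulatory element, and to CCAAT, each searched on both strands, so that a CCAAT on the other strand reads ATTGG. The SREBF2 promoter lies at chr22:41832855-41833154 (plus strand), that of STARD4 at chr5:111512486-111512785 (minus strand), that of FDPS at chr1:155308616-155308915 (plus strand) and that of PMVK at chr1:154936670-154936969 (minus strand).
SREBF2: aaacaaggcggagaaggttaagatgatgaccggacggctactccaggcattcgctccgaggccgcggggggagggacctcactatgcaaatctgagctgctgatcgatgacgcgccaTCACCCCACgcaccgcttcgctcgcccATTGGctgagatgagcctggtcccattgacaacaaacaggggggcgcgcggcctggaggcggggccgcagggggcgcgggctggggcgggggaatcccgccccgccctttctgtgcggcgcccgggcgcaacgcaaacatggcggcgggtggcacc
STARD4: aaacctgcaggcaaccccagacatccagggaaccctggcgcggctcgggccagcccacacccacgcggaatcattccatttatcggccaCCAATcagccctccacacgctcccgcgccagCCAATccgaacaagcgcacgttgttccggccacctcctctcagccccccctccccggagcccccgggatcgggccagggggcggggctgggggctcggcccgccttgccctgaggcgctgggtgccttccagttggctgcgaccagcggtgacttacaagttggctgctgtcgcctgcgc
FDPS: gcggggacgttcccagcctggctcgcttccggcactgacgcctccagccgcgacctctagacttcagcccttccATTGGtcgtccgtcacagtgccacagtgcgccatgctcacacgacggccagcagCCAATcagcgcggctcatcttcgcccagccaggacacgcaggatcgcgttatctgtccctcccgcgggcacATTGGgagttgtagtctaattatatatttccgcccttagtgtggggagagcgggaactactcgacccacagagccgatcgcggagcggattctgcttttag
PMVK: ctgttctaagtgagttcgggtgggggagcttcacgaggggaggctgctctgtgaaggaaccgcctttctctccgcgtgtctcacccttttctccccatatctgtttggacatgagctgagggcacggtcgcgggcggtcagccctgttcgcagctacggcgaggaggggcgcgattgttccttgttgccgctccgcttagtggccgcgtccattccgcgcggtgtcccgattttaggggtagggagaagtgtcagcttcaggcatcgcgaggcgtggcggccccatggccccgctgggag
TCACNCCAC was found in 1 of the 27 members with a promoter, SREBF2, where it begins 133 bases before the start and lies apart from the CCAAT that begins 106 bases before it. Of 8085 measured genes with a promoter 1.48% held it, as did 1.39% of all 27305 genes with a promoter. Only exact matches within these windows were sought, so an element that differs from the string or lies elsewhere was missed. The count does not say how many members have a sterol regulatory element. CCAAT was found in 20 of the 27 members, 74.1%, against 43.6% of measured genes and 39.7% of all genes with a promoter. STARD4 held it at 2 places and FDPS at 3, and the bases shown for PMVK at none. Those PMVK bases lie wholly within the gene span given above, which begins upstream of them. Bases before that start were not searched. The core of the E-box CACGTG, a palindrome that SREBP-1 can also bind, was in 4 members (LSS, SC5D, SCAP and INSIG1), 14.8%. It was in 12.7% of measured genes and 8.77% of all genes with a promoter. Of the 4 genes shown, CCAAT was matched in SREBF2 and STARD4, lower in PIM3_KO, and in FDPS, higher in it, but not in PMVK, also higher. The part that these motifs play in the ratios was not tested.

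In fatty acid synthesis no measured member was past 2-fold. ACLY, which cleaves citrate to cytosolic acetyl-CoA, measured 57.3 FPKM in PIM3_KO and 58.9 FPKM in HuH6_WT. FASN, the multienzyme that builds palmitate, measured 120 FPKM in PIM3_KO and 149.9 FPKM in HuH6_WT, a log2 ratio of -0.32. SCD, the desaturase that makes oleate, was the second most abundant of the 24 members with a single row. It measured 310 FPKM in PIM3_KO and 267 FPKM in HuH6_WT, a log2 ratio of 0.21, or -0.25 under TPM. FASN and SCD had ratios of opposite sign in FPKM and both negative under TPM, and SCD over FASN was 2.59 in PIM3_KO and 1.78 in HuH6_WT.

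ELOVL6, which lengthens palmitate, was the least abundant of the 24 members with a single row. It measured 5.28 FPKM in PIM3_KO and 3.67 FPKM in HuH6_WT, a log2 ratio of 0.43, or 0.05 under TPM. FADS1, a desaturase of polyunsaturated fatty acids, measured 32.1 FPKM in PIM3_KO and 37.9 FPKM in HuH6_WT, and it overlaps FADS2 on the opposite strand. FADS2 shared its row with FEN1, a DNA repair nuclease, and that row held 106 FPKM in PIM3_KO and 82.7 FPKM in HuH6_WT. ACACA, the carboxylase that commits acetyl-CoA to fatty acids, was listed at 0.0872 FPKM in PIM3_KO and 0.137 FPKM in HuH6_WT in one row and at 0 in the other. With 2 rows for its symbol, that listing says nothing of how much ACACA the cells expressed. The 5 measured members had a median of -0.04, or -0.50 under TPM.

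Transcript length moved with the ratios of these genes, as it did across the table. The median log2 ratio was 0.58 for the 5 members under 2000 bp, 0.02 for the 10 from 2000 bp to under 4000 bp and -0.24 for the 9 of 4000 bp or more, and the same classes of measured coding genes had medians of 0.35, -0.01 and -0.24. Across the 24 members Pearson's r between log2 length and log2 ratio was -0.45, and across 9693 coding genes it was -0.36, both as descriptions over genes of the same 2 libraries. PMVK and FDPS have transcripts of 1280 bp and 1478 bp, and STARD4 and SREBF2 of 4606 bp and 5240 bp. Each length is that of 1 annotated GENCODE transcript, and the cells may use another.

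Once a curve of ratio on length over all coding genes was subtracted, no member remained past 2-fold, against 4.52% of measured genes above and 5.39% below. STARD4 was at -0.94 and SREBF2 at -0.88 from the curve, the lowest members still, and SC5D at -0.67. At the upper end ELOVL6 and PMVK lay 0.67 and 0.66 above it, and SREBF1 and INSIG1 each 0.63 above it. HSD17B7, a short transcript near equality, was at -0.53 from the curve. The part that length plays in the ratios was not tested.

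**Figure D2:**
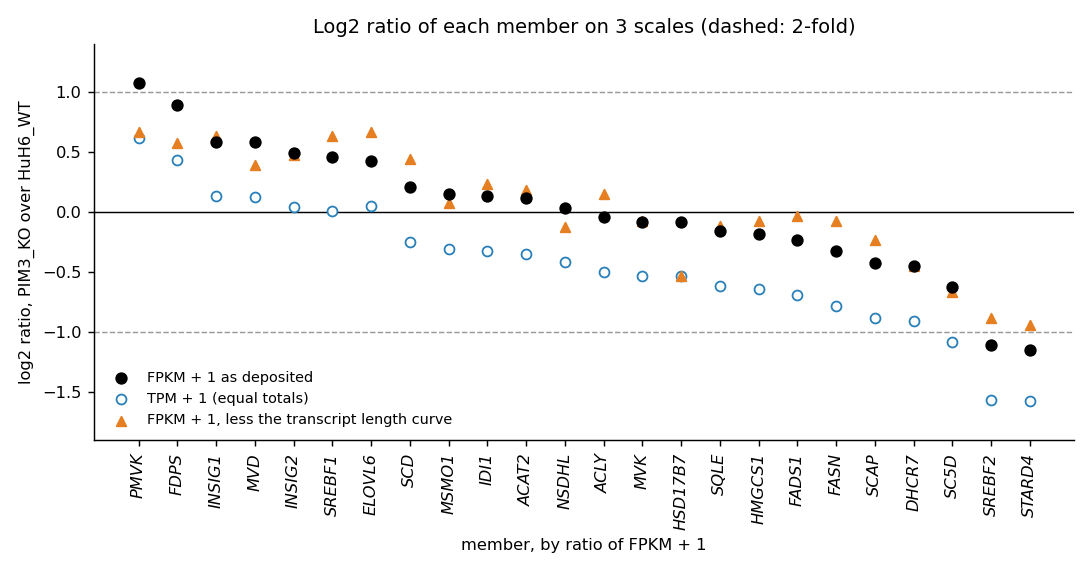
Log2 ratio of each member, PIM3_KO over HuH6_WT, ordered by the ratio of FPKM + 1 (filled circles), with the ratio of TPM + 1 (open circles) and the ratio less the curve on transcript length (triangles); dashed lines mark 2-fold. SREBF2 and STARD4 are lowest on all 3 scales, and PMVK passes 2-fold only as deposited.

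**Figure D3:**
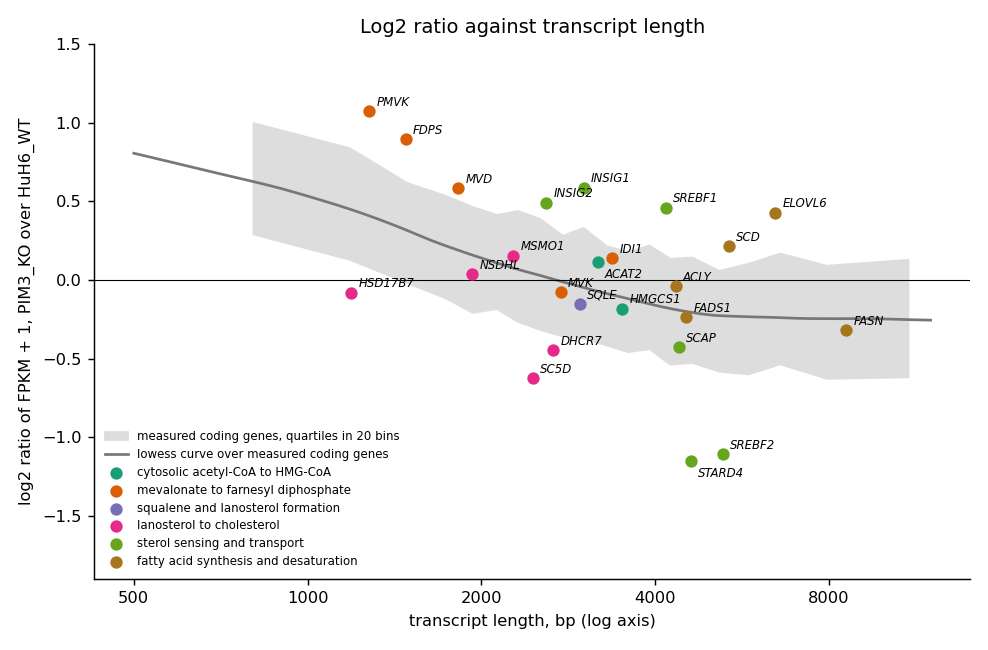
Log2 ratio of FPKM + 1, PIM3_KO over HuH6_WT, against transcript length in bp on a log axis for the 24 members, coloured by role, over the quartiles (grey band) and the lowess curve of 9693 measured coding genes. The members under 2000 bp lie above 0 in 4 of 5 cases, and STARD4 and SREBF2 lie below the band at -1.15 and -1.11.

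The genes around the 4 members with the largest ratios were compared with them. Distances were taken between the lowest coordinates of the genes, whatever their strand. Within 1 Mb of SREBF2, 29 other measured genes had a median log2 ratio of -0.03, and 1 of them was at least 2-fold lower, EP300, a histone acetyltransferase gene, at -1.66. Around STARD4 only 3 other genes were measured, with a median of -0.66 and SLC25A46 at -1.07. No other of the 29 neighbours of SREBF2 was past 2-fold, and 2 of the 3 neighbours of STARD4 had negative ratios. Over all measured genes 4.59% were at least 2-fold lower and 6.89% at least 2-fold higher, and 5509 of 11253 had a negative ratio.

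The lowest coordinates of PMVK and FDPS lie 384014 bp apart on chromosome 1, so their surroundings overlap and they do not sample separate regions. The 35 other measured genes within 1 Mb of PMVK had a median of 0.22, with 13 lower in PIM3_KO, 1 of them at least 2-fold, and 0 at least 2-fold higher. For FDPS the 38 others, PMVK among them, also had a median of 0.22, with 12 lower in PIM3_KO, 0 of them at least 2-fold, and 2 at least 2-fold higher, PMVK itself and LAMTOR2. These counts stand beside 4.59% of all measured genes at least 2-fold lower and 6.89% at least 2-fold higher. A negative ratio was held by 5509 of the 11253 measured genes. Whole chromosome 1 had a median of -0.05 over 1236 measured genes. The part that position plays in these ratios was not tested.

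**Figure D4:**
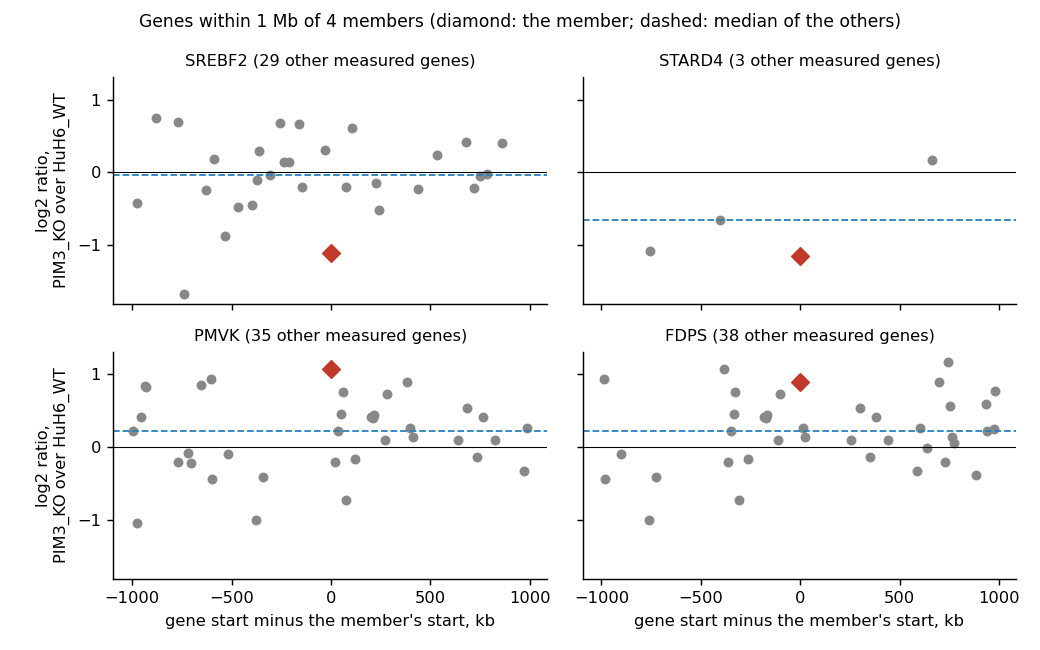
Log2 ratio of FPKM + 1, PIM3_KO over HuH6_WT, of the measured genes within 1 Mb of SREBF2, STARD4, PMVK and FDPS. Distance is in kb between the lowest coordinates of the genes, whatever their strand. Diamonds are the members and dashed lines the medians of the other genes. The dashed line lies at -0.03 around SREBF2, at -0.66 around STARD4 and at 0.22 around both PMVK and FDPS.

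Genes of neighbouring lipid pathways likewise gave counts near the background. Of 71 listed genes 64 had a row of their own and 54 were measured, of which 3 were at least 2-fold higher in PIM3_KO, against 6.89% of all measured genes, and 2 at least 2-fold lower, against 4.59%, with a median log2 ratio of -0.02. Under TPM 1 was higher (NR1H3), against 2.87% of all measured genes, and 4 lower (DHDDS, PGGT1B, SOAT1 and LPIN2), against 14.4%, with a median of -0.45. On that scale the log2 ratios of SOAT2 and AGPAT2 were 0.78 and 0.57, short of 2-fold. Among the 3 measured genes of sterol ester turnover, SOAT2, the sterol acyltransferase of hepatocytes and enterocytes, measured 22.0 FPKM in PIM3_KO and 8.93 FPKM in HuH6_WT, a log2 ratio of 1.21. Its widely expressed counterpart SOAT1 measured 7.55 FPKM in PIM3_KO and 12.1 FPKM in HuH6_WT, a log2 ratio of -0.62. SOAT2 over SOAT1 was 2.92 in PIM3_KO and 0.736 in HuH6_WT.

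NR1H3, which encodes the oxysterol receptor LXR-alpha, measured 61.7 FPKM in PIM3_KO and 21.4 FPKM in HuH6_WT, a fold of 2.88 (2.71 to 3.06), and it stayed past 2-fold under TPM and after the length correction. PGGT1B and LPIN2, described below, also stayed at least 2-fold lower on both scales. SOAT2 stayed past 2-fold after the length correction only, at 1.08, and AGPAT2, at 0.72 after it, on neither scale. The other 4 measured genes of the LXR list lay within 2-fold, the lowest being MYLIP, a ubiquitin ligase induced by LXR, at 12.95 FPKM in PIM3_KO and 13.0 FPKM in HuH6_WT. ABCA1, the LXR-induced sterol exporter, measured 2.35 FPKM in PIM3_KO and 2.08 FPKM in HuH6_WT.

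In the isoprenoid branches, 1 of 6 measured genes was at least 2-fold lower, against 4.59% of all measured genes, and none at least 2-fold higher. Under TPM 2 of the 6 were lower, with DHDDS, a subunit of the enzyme that makes dolichol precursors, at -1.06, against 14.4%. The gene lower on both scales was PGGT1B, a subunit of the enzyme that attaches geranylgeranyl groups to proteins, at 1.54 FPKM in PIM3_KO and 8.21 FPKM in HuH6_WT, a log2 ratio of -1.86. Highest in that list was COQ2, an enzyme of coenzyme Q synthesis, at 30.5 FPKM in PIM3_KO and 17.6 FPKM in HuH6_WT. Triglyceride synthesis had 1 of 5 measured genes past 2-fold in each direction, against 6.89% of all measured genes higher and 4.59% lower. AGPAT2, which acylates lysophosphatidic acid, measured 93.8 FPKM in PIM3_KO and 45.5 FPKM in HuH6_WT. LPIN2, a phosphatidate phosphatase, measured 7.87 FPKM in PIM3_KO and 20.9 FPKM in HuH6_WT.

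The other 4 lists had no gene past 2-fold among 8, 7, 11 and 9 measured, against 6.89% of all measured genes higher and 4.59% lower. In SREBP processing and sterol-regulated degradation the ends were the vesicle coat genes SEC24D, with a log2 ratio of 0.42, and SEC24A, with -0.39. Sterol transport ran from GRAMD1B at 0.41 to STARD5 at -0.27. Precursor supply and activation of fatty acids ran from ACSL3, a fatty acyl-CoA synthetase, at 0.49 to MLXIPL, the carbohydrate-responsive transcription factor ChREBP, at -0.52. Among other elongation and desaturation genes HACD1 was highest, at 157 FPKM in PIM3_KO and 94.6 FPKM in HuH6_WT, and HACD2 lowest at -0.46. Their medians were -0.16, -0.00036, 0.0074 and -0.08 in that order of lists.

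**Figure D5:**
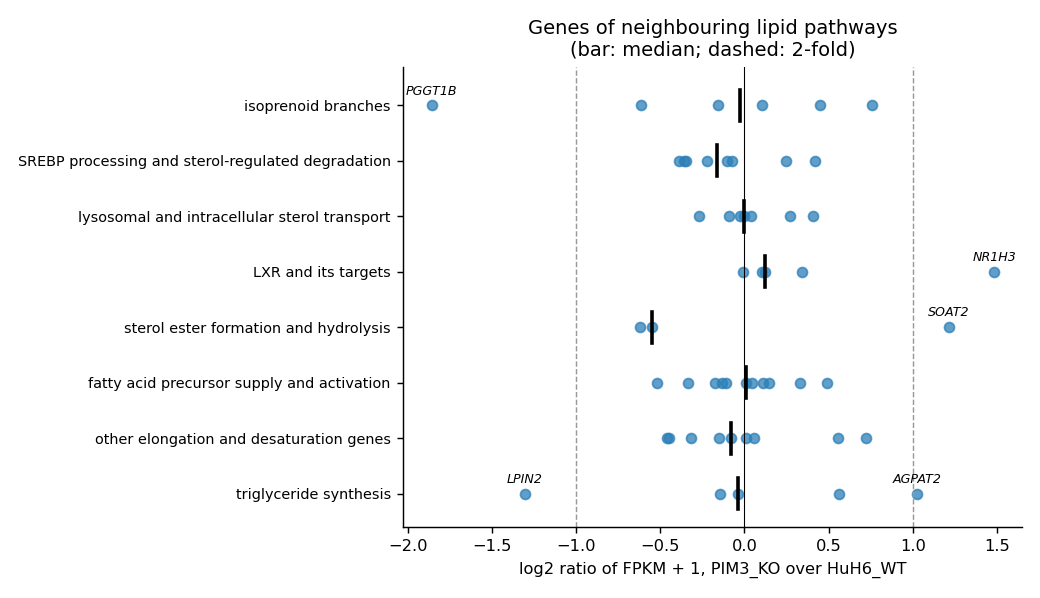
Log2 ratio of FPKM + 1, PIM3_KO over HuH6_WT, of 54 measured genes in 8 neighbouring lipid pathway lists; each point is a gene, bars are list medians and dashed lines mark 2-fold. Past 2-fold are NR1H3, SOAT2 and AGPAT2, higher in PIM3_KO, and PGGT1B and LPIN2, lower in PIM3_KO.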

How the data were processed

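The authors deposited FPKM values for 62571 rows in 1 table with 1 column per library. Per the labels' protocols, poly(A) RNA was read as single-end 75 bp reads from a directional kit. The submitters' processing notes list Cufflinks 2.2.1, STAR 2.7.3a, bcl2fastq 2.18.0.12 and GRCh38, and no source used here states the annotation release, strand setting or filters. The 1736 rows that join symbols and the 2375 symbols in several rows were left out.

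Log2 ratios of FPKM + 1 were computed over all measured genes (python 3.11.15, pandas 2.3.3), with no test, since each group had 1 library. Reads were estimated from steps of low values in single-exon genes, of which 96.5% in PIM3_KO and 96.4% in HuH6_WT were whole within 0.05 reads, on GENCODE 29 length less 200 bp (intervals, scipy 1.17.1). The length curve was a lowess fit with fraction 0.3 (statsmodels 0.14.6). Scripts were tested on simulated data. All members are named, and of each neighbouring list the highest and lowest measured gene. Overlapping and nearby genes, pseudogenes, ABCA1, DHDDS, quotients between genes and the genes under other observations were chosen after their values were seen. The members and lists were chosen with earlier results of these data known. Alternatives were the pseudocount, filter, TPM, centring, summed rows, length correction and a 1.5-fold threshold added after seeing the data.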

Additional observations from a re-analysis of the deposited data

How the results depend on the processing

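The counts of 2 members at least 2-fold lower and 1 higher were the same with a pseudocount of 0.1, without a filter, with a minimum mean of 5 FPKM and after median centring, and summing rows added LSS to the lower ones (3). The shares of all genes lower and higher were not the same. They were 7.22% and 9.16% with a pseudocount of 0.1, and 1.10% and 1.64% without a filter. A minimum mean of 5 FPKM gave 4.34% and 6.67%, centring 4.75% and 6.70%, and summed rows 4.64% and 6.89%. A pseudocount of 5 left 1 lower (SREBF2) and 0 higher, against 1.53% and 3.55% of measured genes. TPM gave 3 lower and 0 higher with a median of -0.46, against 14.4% and 2.87%. The length correction gave 0 lower and 0 higher, against 5.39% and 4.52%. The cause was not tested. At 1.5-fold 3 members were lower and 3 higher, against 14.9% and 18.2% of measured genes. PMVK, SREBF2 and STARD4 kept their direction in every setting run. No paired analysis was possible because each group had 1 library. Leaving out a replicate was likewise not possible. The spread between cultures is unknown.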

Other observations

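Some lipid genes were close to or below the filter and are given as values only. ACACB, the mitochondrial counterpart of ACACA, measured 0.0211 FPKM in PIM3_KO and 0.733 FPKM in HuH6_WT, from about 4 and 191 estimated reads. LIPA, the lysosomal acid lipase, was listed at 0 in PIM3_KO and at 0.629 FPKM in HuH6_WT. THRSP, a lipogenic nuclear protein gene, was listed at 0 in both libraries.

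HACD1 and TECR, which act in the elongation cycle of long fatty acids, were among the more abundant lipid genes. TECR measured 378 FPKM in PIM3_KO and 257 FPKM in HuH6_WT, a log2 ratio of 0.55, or 0.09 under TPM and 0.10 after subtraction of the length curve.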
